A study of Mus musculus with 36 samples.

Results

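Complement is a cascade of plasma proteins that marks microbes, dying cells and debris for removal. In the classical pathway, C1q binds the target and the proteases it carries cut C4 and C2, which together form the enzyme that cleaves C3, the protein on which all routes of activation meet. In the alternative pathway, factor B takes the place of C2 and amplifies the cleavage of C3. C1q is made largely by tissue macrophages, which is unusual for a complement protein, while most other components circulate from the liver and are also made locally by connective tissue cells.

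The 7 complement components described here are the 3 chains of C1q (C1qa, C1qb and C1qc), the classical pathway proteins C2 and C4b, the alternative pathway protein factor B (Cfb) and the central component C3. They were chosen by name, with no threshold on a measured value, and all 7 of them, of 31102 genes with a row in the single-cell tables, had UMIs in Drop-seq. They were followed per gland in macrophage-like, fibroblast-like and epithelial-like cells of the mouse submandibular salivary gland.

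RNA was measured by Drop-seq in 26 glands, each a library of its own. Control glands (6 at P40 and 6 at P90) and glands labelled beta-catenin GOF; Bmpr1a LOF (7 at P40 and 7 at P90), called double-mutant here, came from both sexes. CITE-seq, which reads RNA together with antibody tags on the cell surface, covered 2 control and 2 double-mutant glands at P70, and bulk RNA-seq covered 1 gland labelled wildtype (P70) and 1 that was double-mutant (P100). Both CITE-seq double-mutant glands and both bulk glands were labelled female, while the CITE-seq controls were labelled 1 male and 1 female. Double-mutant mice carried K14-Cre, a gain-of-function allele of beta-catenin, the loss-of-function flox allele of Bmpr1a and the R26 EYFP reporter, and Cre in this line is driven by the keratin 14 promoter, which is active in basal epithelium. Control mice came from a cross of K14-Cre with the same EYFP reporter, and all mice had a C57BL/6 background. Live cells had been sorted and fixed in methanol before Drop-seq, so the numbers of cells are those that survived dissociation and sorting.

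After filtering, 23346 Drop-seq cells and 2535 CITE-seq cells remained. Totals ran from 650301 to 6994504 UMIs per Drop-seq gland and from 670322 to 2205865 per CITE-seq gland. Median UMIs per cell in controls were 2892 (P40) and 1341 (P90), and in double mutants 1570 (P40) and 766.5 (P90). In 2 Drop-seq libraries of double-mutant glands (replicate 1 at P40 and replicate 5 at P90) the sex-linked genes went against the labelled sex. Both belong to batch 11. The P40 library, labelled male, held 591 Xist and 1 Y-linked UMIs, and the P90 library, labelled female, held 0 and 194. Whether their stage labels hold was not tested, and the comparisons split by stage use these labels as given. Both CITE-seq controls, labelled 1 male and 1 female, held UMIs of Xist and of Y-linked genes (151 and 60 in replicate 1, 165 and 71 in replicate 2). The CITE-seq double mutants, both labelled female, held 193 and 16 in replicate 1 and 154 and 14 in replicate 2. The whole-gland Drop-seq differences by genotype, over both stages and at P90, are also given without those 2 Drop-seq libraries. No CITE-seq comparison by genotype could be made without both of its controls. A further library, double-mutant replicate 4 at P90, stood apart by its share of ribosomal protein transcripts. Some cell barcodes, 29 in all, occurred in more than 1 library, and 20 of them were among the cells kept. The P40 and P90 control glands belong to different batches, and an effect of age cannot be told apart from batch among them. Levels are given as CPM, the UMIs of a gene scaled to a fixed total of all UMIs of the same cells or gland. Levels are not compared between genes on that scale, and only the bulk libraries, given per transcript length, allow such a comparison.

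Cells were grouped without the 7 members or any other complement gene, and groups were named from lists of marker genes, none of which holds a complement gene. This gave 2616 macrophage-like cells, with markers such as Csf1r and Cd68, 409 fibroblast-like cells, with collagen genes among their markers, and 17651 epithelial-like cells. The clusters came from the same cells as the levels, so the levels by cell class are a description and carry no test.

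C1qa, C1qb and C1qc encode the 3 chains that assemble, in equal numbers, into the C1q molecule. Their RNA lay almost wholly in macrophage-like cells. Of 4971 C1qa UMIs in Drop-seq, 95.4% came from macrophage-like cells (exact binomial 95% interval 94.8 to 96.0%), which held 3.58% of all UMIs. The corresponding share was 94.2% of 6272 UMIs for C1qb and 94.5% of 4550 UMIs for C1qc. Intervals cover counting error only.

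By gland, the C1qa level in macrophage-like cells was 1688 ± 781 CPM (SD, n = 24 glands with at least 10 such cells) and ranged from 349 to 3658 CPM. The next class in order, pericyte-like cells, stood at 61.9 ± 101 CPM (n = 7), with C1qa UMIs in 3 glands, and fibroblast-like cells at 44.6 ± 78.3 CPM (n = 14). These 2 classes did not differ beyond their spread, and each stood below the lowest macrophage-like value. For C1qb the macrophage-like level was 2146 ± 913 CPM (n = 24), followed by 178 ± 277 CPM in pericyte-like cells and 51.1 ± 66.6 CPM in fibroblast-like cells. Here the highest pericyte-like gland, at 772 CPM, lay above the lowest macrophage-like gland, at 331 CPM. For C1qc it was 1551 ± 664 CPM (n = 24), followed by 49.6 ± 57.7 CPM in fibroblast-like and 38.1 ± 67.7 CPM in pericyte-like cells, which overlapped. In epithelial-like cells all 3 chains stayed low, with a pooled C1qa level of 2.45 CPM over 157 UMIs.

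Detection per cell followed the same split. With each cell thinned to 500 UMIs, 56.6% of 1665 macrophage-like cells held a C1qa UMI (54.2 to 59.0%), against 0.106% of 7514 acinar-like cells, a secretory epithelial class that serves as background. The thinning left out 951 shallower macrophage-like cells, and without it the shares were 65.1% and 0.668%. Of the 2616 macrophage-like cells, 41.0% held UMIs of all 3 chains, 27.3% of 2 chains, 17.0% of 1 chain and 14.7% of none. A cell without a UMI may still express the gene.

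C3, C4b, C2 and Cfb showed a different distribution, with their highest level by cell class in fibroblast-like cells. Of 603 C3 UMIs, 78.4% came from the 409 fibroblast-like cells (74.9 to 81.7%), which held 0.696% of all UMIs. C4b, the mouse gene for complement C4, had 60.4% of its 134 UMIs there (51.6 to 68.8%). C2, the protease that pairs with C4 fragments, had 49.1% of 112 UMIs there (39.5 to 58.7%), and Cfb, its alternative pathway counterpart, 42.9% of 42 UMIs (27.7 to 59.0%).

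The C3 level in fibroblast-like cells was 1058 ± 776 CPM (SD, n = 14 glands, 189 to 2382 CPM). Macrophage-like cells came next with 17.5 ± 25.3 CPM (n = 24), and then endothelial-like cells with 6.88 ± 19.7 CPM (n = 22), whose ranges overlapped with each other but not with fibroblast-like cells. For C4b the order was fibroblast-like cells with 201 ± 247 CPM, with UMIs in 8 of 14 glands, and macrophage-like cells with 8.91 ± 15.4 CPM, with UMIs in 9 of 24 glands. For C2 it was fibroblast-like cells with 117 ± 83.4 CPM, macrophage-like cells with 3.61 ± 6.51 CPM and epithelial-like cells with 0.909 ± 0.944 CPM. For Cfb, fibroblast-like cells stood at 45.4 ± 59.1 CPM, and endothelial-like cells at 6.14 ± 16.6 CPM could not be told from macrophage-like cells at 4.07 ± 6.16 CPM.

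With cells thinned to 500 UMIs, 24.6% of 313 fibroblast-like cells held a C3 UMI (19.9 to 29.8%), against 0.0133% of acinar-like cells, and unthinned the shares were 33.3% and 0.118%. C4b, Cfb and C2 were each held by a larger share of the cells with C3 than of the cells without it. Of 136 fibroblast-like cells with C3, 28 held C4b, compared with 16 of 273 without C3. Cfb was held by 14 cells with C3 and by 1 without it, and C2 by 25 and 26. The median depth was 854 UMIs in cells with C3 and 780 in cells without it, and its part in these counts was not tested. These cells were pooled over glands, 66 from control and 343 from double-mutant glands. The part of differences between glands or genotypes in these counts was not tested either.

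The same arrangement was found in the CITE-seq glands. Macrophage-like cells (585) held 97.4% of 1914 C1qa UMIs, 96.1% of 1503 C1qb UMIs and 97.0% of 1165 C1qc UMIs. Fibroblast-like cells (149) held 96.3% of 590 C3 UMIs and 94.9% of 78 C4b UMIs. They also held 89.7% of 39 Cfb UMIs and 83.0% of 47 C2 UMIs. Of 105 fibroblast-like cells with C3, 27 held C4b, 20 held Cfb and 22 held C2, against 0, 1 and 4 of the 44 cells without C3. The median depth of those cells was 1053 and 791.5 UMIs, and they too were pooled over glands and genotypes.

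In epithelial-like cells, which held 89.4% of all UMIs, the level of each member was low, but their UMIs made up a large part of the sparse ones. C2 had 46 of its 112 UMIs there (41.1%), 32 of them in acinar-like cells at a pooled level of 0.748 CPM. C3 had 69 epithelial UMIs, and 40 of these lay in basal-like cells at 23.6 CPM, while acinar-like cells held 9 at 0.210 CPM. C4b had 17 UMIs in epithelial-like cells, 9 of them in basal-like cells at 5.31 CPM, and Cfb had 6.

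By genotype, with no test of the difference, the shares in Drop-seq were as follows. In control glands 26.3% of 38 C2 UMIs lay in fibroblast-like and 63.2% in epithelial-like cells, and in double-mutant glands 60.8% and 29.7% of 74. For C3 the fibroblast-like share was 51.8% of 83 UMIs in control and 82.7% of 520 UMIs in double-mutant glands, and the epithelial-like share 33.7% and 7.88%. Control glands held 7 C4b UMIs, 3 of them in fibroblast-like cells, and 4 Cfb UMIs, 3 of them in epithelial-like cells. Most UMIs behind the pooled shares of these 4 genes came from double-mutant glands.

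Among macrophage-like cells, C1q varied by sub-cluster. In the largest sub-cluster (1166 cells) the pooled C1qa level was 2844 CPM, in a sub-cluster of 485 cells led by the proliferation genes Top2a and Mki67 and the interferon-induced gene Isg15 it was 2754 CPM, and in 212 cells led by heat-shock and immediate early genes it was 2601 CPM. It was highest, at 3814 CPM, in 52 cells led by Ccl8, Cd209f, Cd163 and Folr2, genes of tissue-resident macrophages. In the remodeling macrophage-like sub-cluster, 365 cells with Gpnmb, Fn1 and Spp1 among their leading genes, C1qa stood at 1711 CPM, C1qb at 2486 CPM and C1qc at 1855 CPM. A further sub-cluster of 286 cells, which carried markers of acinar and duct cells, had 421 CPM of C1qa and held 33.1% of the UMIs of the class. A neutrophil-like sub-cluster of 24 cells held 1 or 2 UMIs of each chain.

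The few UMIs of the other components in macrophage-like cells were unevenly placed. Of 48 C3 UMIs, 28 fell in the remodeling macrophage-like sub-cluster, at 75.8 CPM, and 7 of 14 Cfb UMIs fell there too, at 19.0 CPM. Of 29 C4b UMIs, 17 fell in the 52-cell sub-cluster led by Ccl8, at 408 CPM. This was above the pooled C4b level of fibroblast-like cells, at 218 CPM in glands with at least 20 such cells. Double-mutant glands gave 345 of the 365 remodeling macrophage-like cells and 43 of those 52 cells, beside 2002 of all 2616 macrophage-like cells.

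Across the 26 clusters of the whole data set, the members fell into a C1q group and a group of the other 4. Pearson correlations of log2(CPM + 10) were 0.968 to 0.984 among the C1q chains, 0.898 to 0.986 among C2, C3, C4b and Cfb, and 0.223 to 0.467 between the groups. These are descriptions over 26 clusters that share libraries, and carry no test. The genes most alike to C1qa outside the C1q trio were Il1b (0.990) and Csf1r (0.985). C1qb was also nearest to Il1b (0.977), and C1qc to Il1b (0.978) and Gatm (0.973).

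The fibroblast group had other neighbours. C2 was nearest to the matrix genes Cilp (0.986), Clec3b (0.976) and Lum (0.973). C3 was nearest to Ogn (0.941), Clec3b (0.914) and Timp1 (0.913), and C4b to Lum (0.959), Ccl11 (0.957) and Apod (0.955). Cfb was nearest to C4b (0.986), followed by Cd302 (0.953) and Apod (0.951).

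The members of each group also lie near each other in the genome. C1qa (chr4:136895917-136898803), C1qc (chr4:136889804-136893065) and C1qb (chr4:136880129-136886187) stand in a row on the minus strand of the mm10 build, 2851 and 3616 bases apart. C2 (chr17:34862604-34898265) ends 85 bases from Cfb (chr17:34856374-34862518), and C4b (chr17:34728380-34743882) lies 112491 bases further on, on the same strand. C3 (chr17:57203970-57228136) lies elsewhere on that chromosome. C4b has a near-identical copy, C4a, to which its reads could in part have been counted, and C4a held 12 UMIs against 134 for C4b in Drop-seq.

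The promoters are shown because the C1q chains moved together while C3 followed another cell class. RefSeq promoter windows of the GRCm38.p6 build, from 250 bases before to 50 after the gene start, were at hand for C1qb (chr4:136886151-136886450), C1qc (chr4:136892865-136893164) and C3 (chr17:57228087-57228386), all on the minus strand. Capitals mark the motifs searched on both strands, namely GAGGAA or its reverse complement TTCCTC in C1qb and C1qc (the purine-rich core bound by the myeloid factor PU.1), and in C3 the C/EBP motif TTGCNNAA and the TATA box motif TATAAA. The TATAAA stretch of C3 lies at bases 265 to 270 of its window, which is after the annotated gene start.
C1qb: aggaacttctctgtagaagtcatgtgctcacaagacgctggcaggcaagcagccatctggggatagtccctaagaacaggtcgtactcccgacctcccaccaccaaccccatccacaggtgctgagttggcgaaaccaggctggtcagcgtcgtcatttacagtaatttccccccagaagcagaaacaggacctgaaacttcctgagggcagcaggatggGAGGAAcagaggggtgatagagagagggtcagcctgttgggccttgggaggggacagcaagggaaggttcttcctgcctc
C1qc: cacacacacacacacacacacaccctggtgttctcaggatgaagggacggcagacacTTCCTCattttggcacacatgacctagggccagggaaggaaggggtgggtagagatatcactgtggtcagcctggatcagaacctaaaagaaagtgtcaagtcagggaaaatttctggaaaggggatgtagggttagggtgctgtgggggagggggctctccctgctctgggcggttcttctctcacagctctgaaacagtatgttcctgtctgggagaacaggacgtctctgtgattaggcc
C3: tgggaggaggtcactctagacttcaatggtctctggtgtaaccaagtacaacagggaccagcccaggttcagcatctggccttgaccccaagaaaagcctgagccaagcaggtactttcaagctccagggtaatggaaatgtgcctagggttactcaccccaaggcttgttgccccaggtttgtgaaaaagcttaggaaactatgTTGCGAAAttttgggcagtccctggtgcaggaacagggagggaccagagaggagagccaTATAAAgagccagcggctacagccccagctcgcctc
The GAGGAA core was held by 28.3% of 32851 promoter windows, TTGCNNAA by 10.8% and TATAAA by 13.6%, so that a match is common. GAAANNGAA, TTCNNNGAA and GGANNTTCC had no match in the 3 windows and were held by 8.56%, 8.30% and 4.26% of all windows. A match is a description of these letters and not evidence of binding.

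Genotype was compared first over whole glands, which asks how much complement RNA the cells of a gland held in all. All 3 C1q chains, C3 and C4b rose in double-mutant glands. In a bulk sum of this kind, more cells of a type and more RNA per cell cannot be told apart, and the classes are taken separately further on.

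In control glands at P40 C1qa ran from 3.80 over a median of 10.2 to 50.1 CPM (n = 6), and at P90 from 5.23 over 56.2 to 82.4 CPM (n = 6). In double-mutant glands it ran from 42.1 over 69.2 to 485 CPM at P40 (n = 7), and from 50.7 over 178 to 981 CPM at P90 (n = 7). The groups overlapped at their edges, with 8 of 14 double-mutant glands above the highest control gland. The log2 difference was 1.94 (SE 0.40, adjusted p = 0.00181, edgeR quasi-likelihood test with sex and stage as covariates, Benjamini-Hochberg adjustment over all genes). C1qb was higher by 1.70 (SE 0.39, adjusted p = 0.00417), from group means of 31.1 and 62.5 CPM in control glands at P40 and P90 to 173 and 306 CPM in double-mutant glands. C1qc was higher by 1.71 (SE 0.37, adjusted p = 0.00287), from 21.7 and 45.6 to 129 and 222 CPM. As for C1qa, 8 of 14 double-mutant glands lay above every control gland for each of these chains.

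C3 showed a wider separation. Control glands held 0.475 to 4.30 CPM at P40 (median 2.40) and 0 to 7.25 CPM at P90 (median 2.15), with no C3 UMI in 2 glands. Double-mutant glands held 1.31 to 72.3 CPM at P40 (median 4.70) and 4.09 to 86.7 CPM at P90 (median 39.8). Of the 14 double-mutant glands, 9 lay above the highest control gland, and the log2 difference was 2.62 (SE 0.49, adjusted p = 0.000886).

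C4b was close to absent from control glands. UMIs were found in 3 of 6 control glands at P40 (at most 0.769 CPM) and in 1 of 6 at P90, at 0.595 CPM. In double-mutant glands 6 of 7 held UMIs at P40 (0 to 19.99 CPM, median 0.614) and 7 of 7 at P90 (1.96 to 36.1 CPM, median 11.4). The difference was 3.93 (SE 0.73, adjusted p = 0.000748), with 10 of 14 double-mutant glands above every control gland. This fitted value rests on 7 UMIs in all control glands together.

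C2 and Cfb were too sparse for the filter on low counts, and were tested only without it. C2 averaged 0.649 and 1.58 CPM in control glands at P40 and P90 and 3.13 and 4.40 CPM in double-mutant glands, which overlapped in all but 4 of the 14. The difference in C2 was 0.85 (SE 0.42, adjusted p = 0.214). Cfb had 4 UMIs in all control glands and 38 in double-mutant glands, where it averaged 1.94 CPM at P40 and 3.36 CPM at P90. The Cfb difference was 2.80 (SE 0.68, adjusted p = 0.00191), and 9 of 14 double-mutant glands lay above the highest control gland, at 0.575 CPM.

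Of the 5 members tested in whole glands, 5 were called higher, against a background in which 22.0% of all genes tested passed in either direction. Without the filter 9.98% passed. Leaving out any 1 of the 26 glands kept all 5 calls, with differences of 1.72 to 2.17 for C1qa, 2.37 to 2.75 for C3 and 3.63 to 4.63 for C4b. Without the 2 libraries whose sex-linked genes went against their labels, the differences were 1.78 for C1qa (adjusted p = 0.00499), 1.68 for C1qb, 1.67 for C1qc and 2.502 for C3 (adjusted p = 0.00276), and C4b no longer passed the filter.

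Batches 8, 9, 12, 13 and 14, as numbered in the labels, held both genotypes. Mean C1qa in control against double-mutant glands was 5.59 against 183 CPM in batch 8, 76.2 against 158 CPM in batch 9 and 42.5 against 175 CPM in batch 12. It was 9.44 against 129 CPM in batch 13 and 7.45 against 44.7 CPM in batch 14, so that the C1qa mean was higher in double-mutant glands in 5 of 5 batches. Batches 12 and 13 set P40 control glands against double-mutant glands of both stages. In batch 12 the P40 double-mutant gland, at 42.1 CPM, lay between the control glands, at 34.8 and 50.1 CPM, and only the P90 gland, at 307 CPM, lay above them. In batch 13 the double-mutant glands stood at 268 and 69.2 CPM (P40) and 50.7 CPM (P90). The means of C1qb, C1qc, C2 and C4b were also higher in 5 of 5 batches, while C3 was higher in 4 of 5, with 1.31 CPM in the double-mutant gland and 1.80 CPM in control glands of batch 14. With batch as a further term, C1qa (1.81, adjusted p = 0.0426), C1qb (1.93, adjusted p = 0.0391) and C4b (3.87, adjusted p = 0.0305) passed in edgeR, and C1qc (1.74, adjusted p = 0.0536) and C3 (2.45, adjusted p = 0.0519) did not.

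**Figure D1:**
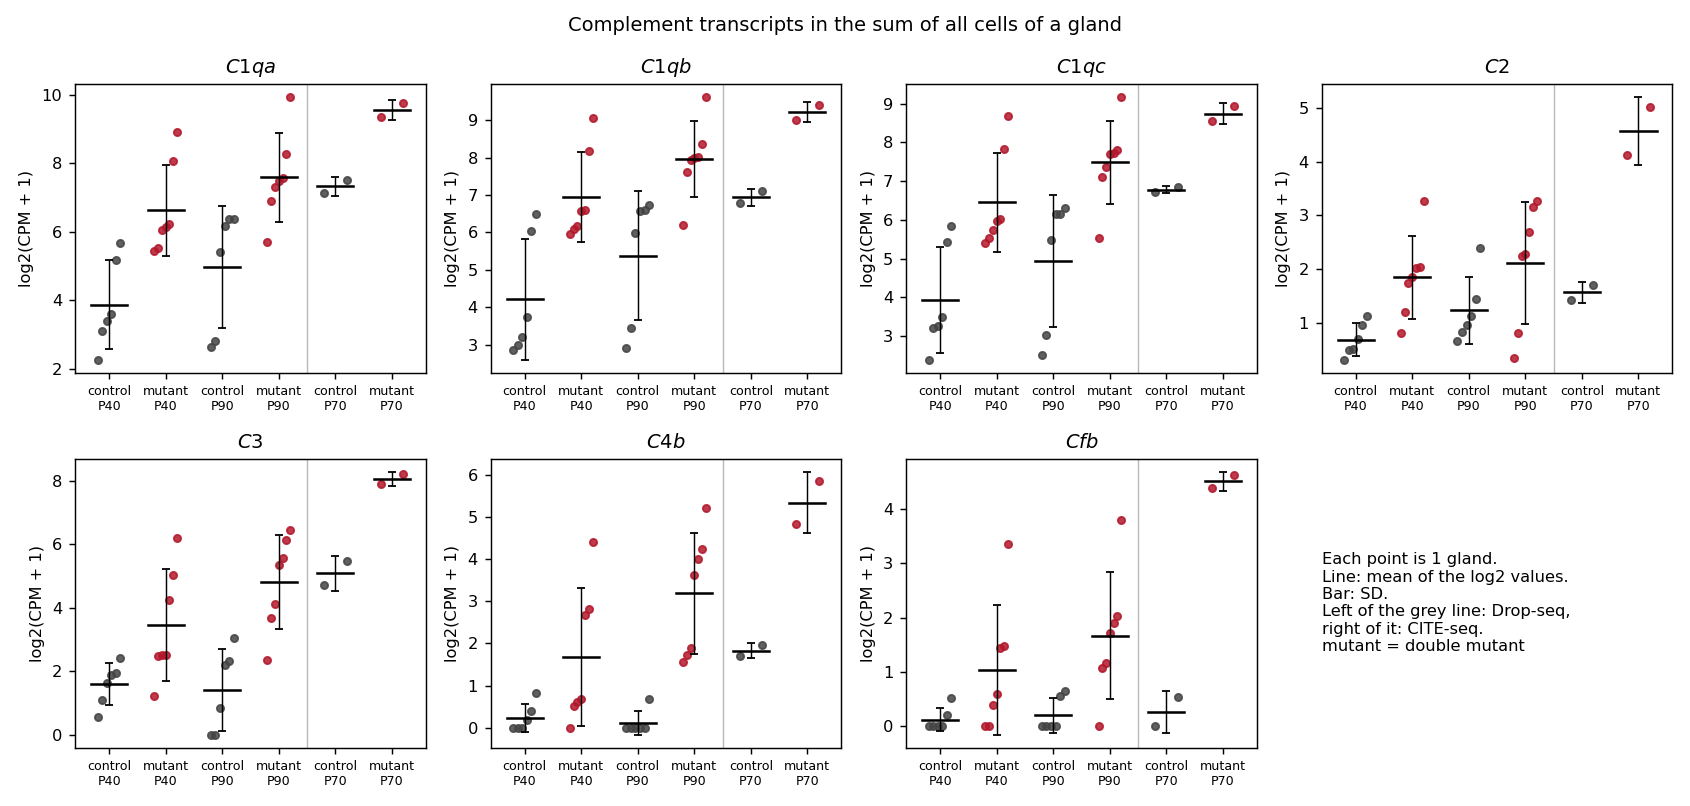
Level of each complement gene per Drop-seq gland (CPM, log scale) for control and double-mutant glands at P40 and P90. Each point is a gland and each line a mean of the log2 values, and 8 to 10 of 14 double-mutant glands lie above every control gland for the C1q chains, C3, C4b and Cfb, but 4 for C2.

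Split by stage, the P40 comparison called 0 of 5 members (background 1.36%), although 5 of 5 were higher at an unadjusted p under 0.05, where 2422 of all 11420 genes tested had such a p in either direction, with 2.04 for C1qa (adjusted p = 0.0653, edgeR), 1.97 for C3 (adjusted p = 0.103) and 2.69 for C4b (adjusted p = 0.112). At P90 3 of 5 were called higher (background 8.07%). These were C1qa with 1.81 (adjusted p = 0.0462), C3 with 3.27 (adjusted p = 0.00686) and C4b with 5.81 (SE 1.13, adjusted p = 0.00362). Without the 2 libraries of doubtful sex label the P90 value of C1qa was 1.37 (adjusted p = 0.163), while C3 at 3.16 and C4b at 5.44 stayed past the threshold.

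The test of the genotype difference between stages called none of the 5 (background 0.00876%). C3 changed by 1.30 (SE 0.96, adjusted p = 0.980, edgeR) and C4b by 3.12 (SE 1.72, adjusted p = 0.910) between the stages. From P40 to P90 in double-mutant glands, C4b differed by 1.73 (SE 0.70, adjusted p = 0.413, edgeR) and C3 by 1.14 (SE 0.56, adjusted p = 0.516), where 0% of all genes passed and 1122 of 11420 had an unadjusted p under 0.05. In control glands 5.04% of genes passed and no member did, with 0.95 for C1qa (adjusted p = 0.423).

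The number of cells differed strongly with genotype. Macrophage-like cells made up 5.65 ± 4.37% of the cells in control glands (SD, n = 12, 1.16 to 12.8%) and 16.1 ± 8.86% in double-mutant glands (n = 14, 6.38 to 31.9%), which differed with p = 0.00111 in a two-sided permutation test with 100000 resamples. Fibroblast-like cells made up 0.621 ± 0.359% and 2.67 ± 1.36%, with p = 1e-05 (adjusted p = 3e-05) in the same permutation test, the smallest value it can give. Within batches the fibroblast-like share differed with a permutation p of 0.00113. Epithelial-like cells fell from 86.5 ± 8.37% to 65.9 ± 16.2% (permutation p = 0.00045).

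Within macrophage-like cells the C1q chains did not pass the test. In control glands at P40 C1qa stood at 711 ± 357 CPM (SD, n = 6, 349 to 1231 CPM), and in control glands with at least 10 such cells at P90 at 1699 ± 387 CPM (n = 4, 1397 to 2205 CPM). Double-mutant glands stood at 1973 ± 447 CPM at P40 (n = 7, 1513 to 2871 CPM) and at 2234 ± 750 CPM at P90 (n = 7, 1531 to 3658 CPM). Of the 10 control glands, 8 lay below every double-mutant gland, namely the 6 at P40 and 2 of the 4 at P90, and 5 of the 14 double-mutant glands lay above every control gland. Over both stages the log2 difference was 0.39 for C1qa (SE 0.17, adjusted p = 0.148, edgeR), 0.36 for C1qb (SE 0.18, adjusted p = 0.233) and 0.25 for C1qc (SE 0.16, adjusted p = 0.337). So 0 of the 3 members tested were called, where 10.8% of 1763 genes passed, and 1 of them, C1qa, had an unadjusted p under 0.05. DESeq2 called 0 as well, with an adjusted p of 0.0577 for C1qa.

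The library size correction bears on this comparison. Without TMM, which scales the sums to each other over all genes, the differences were 1.11 for C1qa, 0.99 for C1qb and 0.94 for C1qc and all 3 were called higher, while the median over all genes moved to 0.744. Markers of acinar cells took a median of 11.8% of the UMIs of macrophage-like cells in controls at P40 (3.31 to 17.1%), 3.76% in controls at P90, and 1.95% and 1.43% in double mutants of the same ages. Macrophage markers took 0.567%, 1.32%, 1.501% and 1.78% in the same order. Without the sub-clusters that carry epithelial markers, the differences were 0.14 for C1qa (adjusted p = 0.782), 0.05 for C1qb (adjusted p = 0.936) and -0.02 for C1qc (adjusted p = 0.973).

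C1q was therefore also counted against the macrophage markers of the same cells. Per 100 UMIs of the macrophage markers, C1qa had 11.7 ± 2.12 UMIs in control glands (SD, n = 10) and 12.8 ± 5.77 in double-mutant glands (n = 14). C1qb had 14.99 ± 3.37 and 15.3 ± 3.19, and C1qc 11.5 ± 1.58 and 10.9 ± 2.39. Two-sided permutation tests gave p = 0.664, 0.832 and 0.510 in that order (adjusted p = 0.832 for each over the 3 chains).

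**Figure D2:**
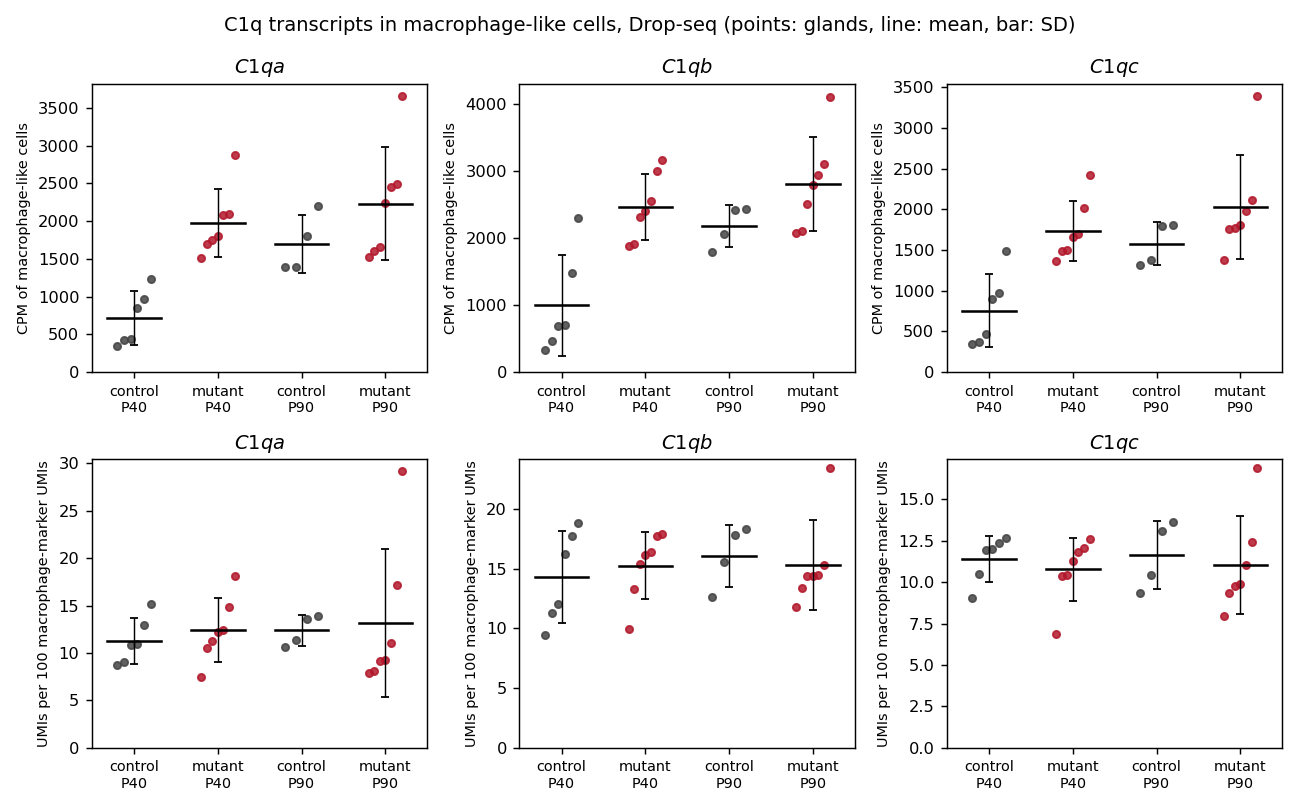
C1q chains in macrophage-like cells per Drop-seq gland, as CPM of these cells and as UMIs per 100 UMIs of macrophage markers, for control and double-mutant glands. Control glands at P40 have the lowest C1qa (349 to 1231 CPM), and the genotypes overlap when set against the markers (C1qa 11.7 ± 2.12 and 12.8 ± 5.77).

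By stage the C1qa difference in macrophage-like cells was 0.60 at P40 (adjusted p = 0.155, edgeR, background 2.61%) and 0.18 at P90 (adjusted p = 0.806, background 2.79%). No chain was called at either stage or for the difference between stages (background 0.0914%). Nor was any called between P40 and P90 in control glands (0.0914%) or in double-mutant glands (0%).

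UMIs of C3, C4b and Cfb in macrophage-like cells were few. Macrophage-like cells of control glands held 5 C3 UMIs, 2 of C4b and none of Cfb, and those of double-mutant glands 43, 27 and 14. None passed the filter, and without it the differences were 1.55 for C3 (adjusted p = 0.217, edgeR), 2.35 for C4b (adjusted p = 0.161) and 2.80 for Cfb (adjusted p = 0.136).

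In fibroblast-like cells only 2 control glands, both at P40, held at least 10 cells, against 7 double-mutant glands at P40 and 5 at P90. C3 stood at 189 and 610 CPM in the control glands. It ran from 234 over a median of 510 to 1917 CPM in double mutants at P40, and from 1059 over 1862 to 2382 CPM at P90, so that each P90 gland lay above both control glands and the P40 glands overlapped with them. The difference between genotypes was 0.999 (SE 0.74, adjusted p = 0.918, edgeR). C4b had no UMI in either control gland. It was found in 3 of 7 double-mutant glands at P40 (at most 219 CPM) and in 5 of 5 at P90 (128 to 691 CPM), and the fitted difference was 4.33 (SE 2.63, adjusted p = 0.918), a value that depends on the prior count of the fit. Of 613 genes tested, 0% passed in edgeR or in DESeq2, and 27 and 23 of them had an unadjusted p under 0.05.

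Cfb in fibroblast-like cells was at 0 in both control glands, at 49.0 ± 79.0 CPM in double-mutant glands at P40 (n = 7, UMIs in 4) and at 58.5 ± 26.7 CPM at P90 (n = 5, UMIs in 5). C2 did not separate the groups, at 109 ± 46.2 CPM in the control glands and at 97.7 ± 70.9 and 148 ± 113 CPM in double-mutant glands at P40 and P90. With fibroblast-like cells of any number in a gland, the C3 difference was 1.05 (adjusted p = 0.276, edgeR).

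The CITE-seq glands gave more fibroblast-like cells per control gland. There C3 stood at 2434 and 3467 CPM in the control glands and at 3103 and 3533 CPM in the double-mutant glands, which overlapped (0.26, SE 0.32, adjusted p = 0.725, edgeR). C4b stood at 230 and 237 CPM against 393 and 588 CPM, which did not overlap but did not pass (1.14, SE 0.48, adjusted p = 0.219). Cfb stood at 0 and 45.9 CPM against 229 and 280 CPM, and C2 at 94.99 and 138 CPM against 224 and 294 CPM. Neither passed the filter, and without it the values were 3.73 for Cfb (adjusted p = 0.112) and 1.58 for C2 (adjusted p = 0.746).

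**Figure D3:**
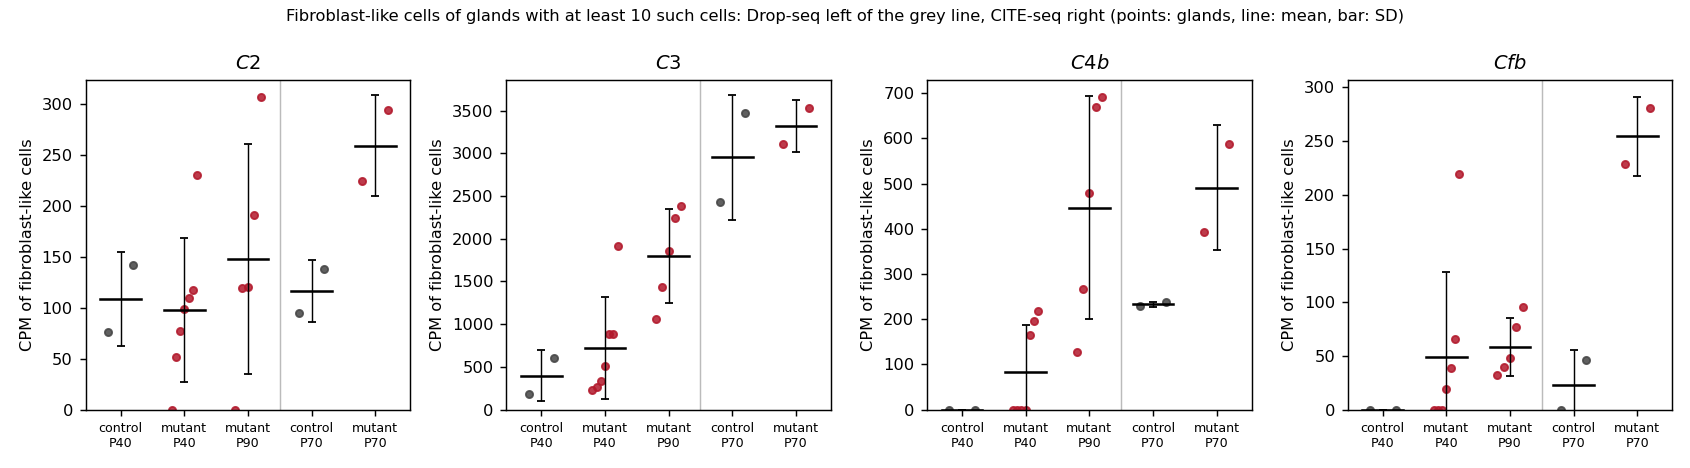
Level of C2, C3, C4b and Cfb in fibroblast-like cells of each gland (CPM of these cells) with at least 10 such cells, by genotype and stage, for Drop-seq and CITE-seq. C3 is present in every gland, while C4b and Cfb are at 0 in both Drop-seq control glands and have UMIs in 5 of 5 double-mutant glands at P90.

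In epithelial-like cells none of the 2 members tested was called in edgeR or DESeq2, where 6.64% of 9130 genes passed in edgeR, and C1qb had an unadjusted p under 0.05. C1qa, of which these cells held a mean of 1.88 and 2.40 CPM in control glands and 5.22 and 11.3 CPM in double-mutant glands at P40 and P90, differed by 0.97 (adjusted p = 0.220, edgeR), and C1qb by 0.94 (adjusted p = 0.171). C4b did not reach the filter on low counts and passed without it (3.35, SE 0.84, adjusted p = 0.00264), from 1 UMI in control and 16 UMIs in double-mutant glands. The part of free RNA from other cells in these low values was not tested.

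In whole CITE-seq glands 7 of 7 members were higher in double-mutant glands, where 13.7% of 10058 genes passed. C1qa stood at 182 and 139 CPM in the control glands and at 646 and 861 CPM in the double-mutant glands (1.51, SE 0.27, adjusted p = 0.0165, edgeR). C3 stood at 43.5 and 24.9 CPM against 237 and 295 CPM (2.25, SE 0.32, adjusted p = 0.00744), and Cfb at 0 and 0.453 CPM against 19.97 and 23.9 CPM (5.36, SE 0.72, adjusted p = 0.00675).

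The other CITE-seq members moved the same way. C1qb was higher by 1.56 (SE 0.27, adjusted p = 0.0138, edgeR), C1qc by 1.27 (SE 0.26, adjusted p = 0.0211), C2 by 2.74 (SE 0.53, adjusted p = 0.0191) and C4b by 3.24 (SE 0.49, adjusted p = 0.00916). Leaving out 1 of the 4 glands left 3 to 6 members called. The count was 4 without double-mutant replicate 1 and 3 without double-mutant replicate 2, and it was 6 without control replicate 1 and 5 without control replicate 2. In macrophage-like cells of these glands the 3 chains were not called by edgeR (background 3.05%) or DESeq2, 1 of them, C1qc, having an unadjusted p under 0.05 in edgeR, at -0.22 for C1qa (adjusted p = 0.501), -0.14 for C1qb (adjusted p = 0.725) and -0.48 for C1qc (adjusted p = 0.187).

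Across the 26 whole glands the genes most alike to each member, by Spearman correlation of log2 CPM, were again ones of macrophages for C1q. C1qa was nearest to C1qc (0.985), Ctss (0.977) and Lat2 (0.974). For C1qb these were Ctss (0.973), C1qc (0.969) and Arhgdib (0.968), and for C1qc they were C1qa, Ctss (0.970) and Arhgdib (0.969). C3 was nearest to Vat1 (0.923), AA467197 (0.921) and Sned1 (0.906). C4b was nearest to Clec4d (0.879), Slc7a11 (0.871) and Dmkn (0.868), Cfb to Scpep1 (0.886), Tsc22d3 (0.859) and Npc2 (0.855), and C2 to Rap2a (0.899), Ap2b1 and Eea1. All these values share the same libraries and depths and carry no test.

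The bulk libraries allow the levels of the members to be set side by side per transcript length, as TPM, which divides counts by transcript length before scaling. In the wildtype gland C1qb (14.3 TPM) and C1qa (13.9 TPM) stood highest, followed by C3 (10.01 TPM), C1qc (6.62 TPM), C4b (1.05 TPM), C2 (0.210 TPM) and Cfb (0.0360 TPM). In the double-mutant gland C1qa (29.6 TPM), C1qb (25.4 TPM) and C3 (24.0 TPM) led, followed by C1qc (11.6 TPM), C4b (3.40 TPM), C2 (0.437 TPM) and Cfb (0.0272 TPM). Both glands thus held the least of Cfb and C2.

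As ratios of the 2 bulk libraries, C4b was 3.24 times higher in the double-mutant gland (235 and 756 counts, 95% interval 2.80 to 3.77 from counting error only). C3 was 2.40 times higher (2024 and 4817 counts, 2.28 to 2.53), C1qa 2.12 times (570 and 1199 counts, 1.92 to 2.35) and C2 2.08 times (32 and 66 counts, 1.34 to 3.28). C1qb was 1.78 times higher (1.61 to 1.96) and C1qc 1.75 times higher (1.57 to 1.96). Cfb had 4 and 3 counts and showed no difference that this depth could resolve (0.756, 0.111 to 4.47). Of 13971 genes with at least 20 counts in all, 5.36% were at least 2-fold higher. Each condition had 1 library, the ages differed (P70 and P100), and the ratios compare those libraries only.

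The list of other complement genes held 43 genes, 39 of which had a row in the single-cell tables. In whole Drop-seq glands 16 were tested, of which 12 were higher and 2 lower, with a median log2 difference of 1.88 beside 0.0188 over all genes tested. The proteases that C1q carries, C1ra (1.86) and C1s1 (1.87), were higher and lay mainly in fibroblast-like cells, with 86.1% and 82.6% of their UMIs. Cfp, the alternative pathway protein properdin, was higher by 2.08. None of the 7 terminal pathway genes, which build the pore in the target membrane, had counts enough to be tested.

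Among receptors, C3ar1 (1.72) and C5ar1 (1.46), which bind the fragments released from C3 and C5, were higher, and 94.1% and 95.5% of their UMIs lay in macrophage-like cells. The integrin subunits of the receptors for cleaved C3 were higher too, with Itgb2 at 2.95, Itgax at 2.46 and Itgam at 2.15. Cd93, found mainly in endothelial-like cells, was higher by 1.90. Among regulators, Clu (3.01) and Serping1, the inhibitor of C1r and C1s (2.20), were higher, while Cd59a (-0.76, adjusted p = 0.0397, edgeR) was lower in the fit. C1qbp, which was listed with the receptors, was also lower in the fit (-0.38, adjusted p = 0.0436, edgeR). The unfitted mean of C1qbp was in the other direction, at 28.3 CPM in control and 32.5 CPM in double-mutant glands, while that of Cd59a stood at 57.9 and 44.9 CPM. Both genes lay mainly in epithelial-like cells, with 93.8% and 90.2% of their UMIs.

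Within classes fewer of these genes passed. In macrophage-like cells 3 of 6 tested were higher, where 10.8% of all genes tested passed. They were Itgb2 (1.89, adjusted p = 0.00147, edgeR), Itgax (1.203, adjusted p = 0.0159) and Itgam (1.30, adjusted p = 0.0230). Their values without the sub-clusters with epithelial markers are not given here. In CITE-seq macrophage-like cells 0 of 8 tested passed. Itgb2 differed there by 0.22 (adjusted p = 0.859, edgeR), Itgax by 0.40 (adjusted p = 0.703) and Itgam by 1.30 (adjusted p = 0.126). In epithelial-like cells Clu, a secreted chaperone that also restrains the terminal pathway, was higher by 3.499 (adjusted p = 1.24e-05), as 1 of 5 tested. In fibroblast-like cells none of 4 tested passed. In bulk, Clu counts were 229 and 3830, a ratio of 16.9.

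In whole CITE-seq glands 16 of the other complement genes were tested, of which 9 were higher (among them C1ra, C1s1, Cfp, C3ar1, Itgax, Itgb2, Serping1 and Clu, the last by 4.37) and 2 were lower. These were C1qbp (-1.25) and Itgam (-1.01, adjusted p = 0.0457, edgeR). Itgam turned to 1.68 (adjusted p = 0.0192) without a cluster of 189 cells led by Irs4, 138 of them from control glands, which held 1224 of 1419 Itgam UMIs and no lineage markers. Without that cluster Itgax (1.10, adjusted p = 0.0785) and C1qbp (-0.79, adjusted p = 0.0614) no longer passed in edgeR. That cluster held at most 10 UMIs of any member, and without it all 7 members remained higher. Leaving it out lowered the log2 difference of every other complement gene tested there except Itgam and C1qbp. Clu went from 4.37 to 4.03, C1ra from 2.26 to 1.94 and Serping1 from 2.28 to 1.94. The member values printed for whole CITE-seq glands include the cluster, and their size without it is not given here.

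Antibodies in CITE-seq read 2 of the receptor subunits on the cell surface. CD11b, the protein of Itgam, had a median of 35.5 and 29.5 counts per macrophage-like cell in the control glands and of 13.5 and 17 in the double-mutant glands. CD11c, the protein of Itgax, had 73.5 and 41 in control and 37.5 and 36 in double-mutant glands. Fibroblast-like and epithelial-like cells had medians of 0 or 1 for CD11b, but of 4 to 7 and of 7 to 14 for CD11c. The isotype control, an antibody that reads background, had medians of 5 to 9 in macrophage-like, 5 to 7 in fibroblast-like and 6 to 13 in epithelial-like cells. As a share of all antibody counts of the macrophage-like cells the order for CD11b was the other way, with 1.39% and 1.73% in control and 2.03% and 2.58% in double-mutant glands. The share of the isotype control moved the same way, with 0.212% and 0.177% in control and 0.435% and 0.398% in double-mutant glands. The part of background in the CD11b share was not tested. The direction for CD11b thus depended on the scaling, and with 2 glands of each genotype no test was made.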

How the data were processed

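Single-cell reads were aligned by the authors to mm10 (Drop-seq tools, STAR) with GENCODE vM7, Cre and EYFP as the annotation, and the deposited tables hold raw UMI counts for every gene and barcode. They counted antibody tags per barcode (whether UMIs or reads is not stated) and bulk reads with featureCounts 1.6.0 by gene name, with no strand setting stated. The paper states that human spike-in cells were removed from CITE-seq. Whether any remained in the tables used, such as in the Irs4-led cluster, was not tested. All deposited values used are raw counts.

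Samples were grouped by the submitters' labels. Cells with 100 or more genes and at most 15% mitochondrial UMIs were kept, and in CITE-seq also at most 2500 genes. No doublet caller was run. Cells were clustered without the members or other complement genes (scanpy 1.11.5, leidenalg 0.10.2, Python 3.11.15; 2000 variable genes, 30 components, 20 neighbors, resolution 1.0), and clusters were named by at least 3 markers. UMIs were summed per gland and class, with at least 10 cells, and tested with edgeR 4.0.16 in R 4.3.3 (quasi-likelihood, TMM, filterByExpr, sex and stage as covariates, Benjamini-Hochberg over all genes tested, threshold 0.05). CITE-seq used genotype alone, so that sex, which by label was not balanced between its genotypes, was not a covariate. SEs were taken from the log2 difference and its F statistic. Each library holds the cells of 1 gland of 1 mouse, and this gland is the replicate, so p-values measure the spread between glands. Shares of cells were compared by permutation (scipy 1.17.1, 100000 resamples, adjusted over 3 classes). Intervals are exact at 95%. Totals of 650301 to 6994504 UMIs per Drop-seq gland set the precision, so that C2, C4b and Cfb rest on few UMIs. Bulk counts were divided by summed exon length for TPM and carry no test.

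The genes named are the members, the other complement genes past an adjusted p of 0.05 in a genotype comparison, and for each member the 3 genes most alike across clusters and across glands. The members and lists were chosen with earlier results of these data known. Alternatives were DESeq2 1.42.0, no TMM, no filter, thinning, batch as a term, a replicate block, other cell filters and clusterings, and leaving out each gland. Leaving out sub-clusters with epithelial markers or the Irs4-led cluster, and the fibroblast-like cells of CITE-seq or of any number, were added after seeing the data. The authors' own table of cells was not used. Values of 1 further gene of the list are not reported here.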

Additional observations from a re-analysis of the deposited data

Results flagged for a closer look

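Within groups of 4 to 7 glands, 14 values in 56 groups tested stood apart from the others of their group by Dixon's criterion at 95%. Chance alone gives about 1 in 20 groups where values are normal and independent. These CPM values are skewed and the C1q chains of a gland move together, so the 14 values cannot be set against that rate. No explanation was tested for any of them. They concerned 7 glands in all.

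In control glands, replicate 1 at P40 had 0.430 CPM of Cfb over the whole gland (next gland 0.158 CPM), replicate 1 at P90 had 4.27 CPM of C2 (next 1.72 CPM), and replicate 3 at P90 had 0.595 CPM of C4b, where the other 5 had none. These Cfb and C4b values were 1 UMI each.

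Double-mutant replicate 5 at P40, the gland with the fewest UMIs (650301), was the highest of its group in C3, C4b and Cfb. Over the whole gland it had 72.3 CPM of C3 (next 31.9 CPM), 19.99 CPM of C4b (next 6.04 CPM) and 9.23 CPM of Cfb (next 1.80 CPM), and its fibroblast-like cells had 1917 CPM of C3 (next 887 CPM) and 219 CPM of Cfb (next 65.8 CPM). Double-mutant replicate 2 at P40 had 8.63 CPM of C2 (next 3.15 CPM).

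Double-mutant replicate 5 at P90, whose sex-linked genes went against its label, was the highest of its group in C1q, with 981 CPM of C1qa (next 307 CPM), 791 CPM of C1qb (next 329 CPM) and 577 CPM of C1qc (next 222 CPM), and also had 13.01 CPM of Cfb (next 3.11 CPM). In macrophage-like cells, double-mutant replicate 1 at P90 had 3392 CPM of C1qc (next 2117 CPM).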

How the results depend on the processing

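Counts of called members changed with the processing as follows, and the cause was not tested except where fewer genes were tested. In whole Drop-seq glands 5 members were called, 3 when each gland was thinned to the smallest (the 3 members still tested) and 3 with batch as a term. At P40 the count of 0 became 5 without TMM, 5 without the filter and 3 with the replicate block, and at P90 the count of 3 became 5, 6 and 6. Without the filter 1 member (C1qa) was called between stages in control and 2 (C3 and C4b) in double-mutant glands, against 0. In macrophage-like cells 0 became 3 without TMM and 1 (C1qa) with thinning, at P40 it became 3, and between stages in control glands 2 (C1qa and C1qc), both without TMM. In epithelial-like cells 0 became 1 without TMM (C1qb), without the filter (C4b) and with the replicate block (C4b), and leaving out 1 gland gave 0 to 1 (C1qb without control P40 replicate 2, adjusted p = 0.0358 in edgeR). In CITE-seq glands leaving out 1 gland gave 3 to 6 of 7. Calls over all genes follow for some of these settings only. For the others, such as those split by stage, these counts do not set the members apart from other genes. Over all genes, whole-gland calls were 1515 higher and 793 lower, but 5532 and 51 without TMM, where the median over all genes was 0.676. They numbered 2308 in all, against 5583 without TMM, 1077 with thinning, 3998 with the block and 300 with batch as a term. In macrophage-like cells 191 genes were called, 901 without TMM (880 higher), 408 without the filter, 70 with thinning, 38 with batch as a term and 37 without the sub-clusters with epithelial markers, and in CITE-seq glands 1379, against 644 with DESeq2 and 3107 without TMM.

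Signs turned only in log2 differences that were not called in the reported tests. For the difference between stages, C1qc became 0.13 with thinning, C1qa 0.039 and C1qc 0.11 with the block, and C1qa 1.04, C1qb 1.22 and C1qc 1.18 with batch as a term. Between stages in control glands C3 became 0.27 without TMM and 0.045 with thinning, and C1qa -0.13, C1qb -0.80 and C1qc -0.68 with batch as a term. In macrophage-like cells without the sub-clusters with epithelial markers, C1qc became -0.021 overall and -0.019 at P40, and at P90 C1qb became -0.0255 and C1qc -0.0254. With batch as a term C1qa became -0.26, C1qb -0.065 and C1qc -0.46 at P90. C1qa between stages in double-mutant glands became -0.013 without the 2 libraries of doubtful sex label, and C1qb in CITE-seq macrophage-like cells 0.050 without the filter.

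Bulk ratios without the 10 most abundant genes were 2.40 for C1qa, 2.01 for C1qb, 1.99 for C1qc and 2.72 for C3. The share of macrophage-like cells with C1qa was 45.3% at 300 UMIs, 67.2% at 1000 and 65.1% unthinned, and that of fibroblast-like cells with C3 was 19.6%, 31.1% and 33.3%. Of 285 recomputed answers to comparisons 255 stayed on their side of the threshold or within the spread, and of 831 values of single genes 762 did. Replicate numbers did not pair the glands, with a mean correlation of 0.036 over 37 same-numbered pairs (12 above 0.1) and -0.006 over 216 other pairs. A minimum of 20 fibroblast-like cells per gland could not be fitted, since no control gland was left. C2, C4b and Cfb are limited by depth, and a difference within fibroblast-like cells was not detectable with 2 control glands.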
